A study of Mus musculus with 10 samples.

Results

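The clones described here carried an mCHERRY barcode and were rare in the baseline samples. A barcode counted as such a clone when its name began with mCHERRY_, its level was under 100 CPM in both baseline samples and it was above 0 in at least 1 of them. CPM gives a barcode's reads per 1000000 reads of its sample, so 100 CPM is 1 read in 10000. The rule took 1811 of 10295 listed mCHERRY barcodes, out of 19704 barcodes of all colours. The baseline of donor mouse 1 held 907 of them and that of donor mouse 2 held 1046, with 142 in both. Because baseline levels chose these clones, every comparison of a disease level with a baseline level is a description without a test.

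SPLINTR libraries are lentiviral pools in which each virus inserts a short DNA barcode into the genome together with a fluorescent protein, and the barcode is passed to all descendants of the infected cell. Counting the barcodes therefore shows how large each family of cells, or clone, has become. A clone that is rare before transplantation and common in the diseased mouse has grown more than its neighbours, whereas a clone that is missing afterwards may have died out, may not have been transferred, or may lie below the depth of sequencing.

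The study transplanted mouse leukaemia cells carrying MLL-AF9, a fusion of the Kmt2a and Mllt3 genes that turns blood progenitors into leukaemia cells. Mouse c-Kit-positive progenitors had been barcoded in culture, and cells of 2 donor mice were sequenced at baseline and again at disease from the bone marrow and spleen of NSG mice, whose T, B and natural killer cells are missing, or of PTPRCA mice, a strain with a working immune system that carries another form of the CD45 gene. All groups shared the MLL-AF9 leukaemia and the barcoding, and each of the 5 groups (baseline, and bone marrow or spleen of NSG or PTPRCA mice) held 1 sample per donor. The sources used here do not give the number and age of the recipients, the tissue of the baseline cells or whether marrow and spleen came from the same recipients, and the 2 donors are the replicates of each group (n = 2).

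Each sample was the mean of 2 to 4 sequenced libraries with 5171235 to 10394809 barcode reads per sample. At these depths 3 reads equalled 0.289 to 0.580 CPM, which is the limit for a clone with no reads. The Wilson intervals given below treat clones as independent draws. They cover neither the spread between donors nor the error of the reads, since PCR copies of a barcode are not independent molecules.

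The clones spanned the whole range below the ceiling. In donor 1, 90 lay under 1 CPM at baseline, 242 at 1 to 10 CPM and 575 at 10 to 100 CPM. In donor 2 the 3 bands held 122, 285 and 639 clones. The median baseline level was 18.2 CPM in donor 1 and 17.7 CPM in donor 2. Just inside the ceiling lay mCHERRY_2_Barcode_667113 at 99.96 and mCHERRY_2_Barcode_475197 at 99.9 CPM in donor 2, and mCHERRY_2_Barcode_681610 at 99.9 CPM in donor 1. Just outside lay mCHERRY_2_Barcode_447964 at 100.01 and mCHERRY_2_Barcode_157877 at 100.2 CPM in donor 2, and mCHERRY_2_Barcode_440241 at 100.2 CPM in donor 1.

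How firmly a clone's band was known depended on its reads. Both baselines were means of 2 libraries, and every value could be split into the reads of each. The lowest band rested on a median of 2 reads in either donor. The middle band rested on 21 reads in donor 1 and 22 in donor 2, and the upper band on 216 and 204. Between the 2 libraries of donor 1, the log2 ratio of a clone had an SD of 2.02 in the lowest and in the middle band and of 0.54 in the upper band. A clone below 10 CPM could thus differ several-fold between libraries of the same sample, while clones of the upper band were measured closely in donor 1. In donor 2 the spread was wider, with an SD of 2.55 in the lowest and 3.79 in the middle band. There 203 of 285 clones of the middle band differed by more than 4-fold between libraries, against 67 of 242 in donor 1. The SD of the upper band was 1.76 in donor 2, and 65 of its 639 clones differed by more than 4-fold against 3 of 575 in donor 1.

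Part of that spread lay in the clones seen in both baselines, and they bear on every value for donor 2. Of these 142 clones, 139 had reads in only the second library of the donor 2 baseline, which gave 3586 of their 3692 reads there. In donor 1 the reads of the same clones were spread evenly, with 18483 and 17904 in the 2 libraries. Their median baseline level was 39.1 CPM in donor 1 and 2.48 CPM in donor 2, and 134 of the 142 were higher in donor 1. At disease they were found with donor 1. Per sample, 130 to 138 of them were detected in the disease samples of donor 1 and 2 to 4 in those of donor 2. At least 1 disease sample reached 100 CPM for 121 of them in donor 1 and for 0 in donor 2, where the highest level was 45.7 CPM. Their level in the donor 2 baseline was ranked against the other samples over the 142 clones. The Spearman correlation was 0.41 with NSG bone marrow and 0.38 with NSG spleen of donor 1. It was 0.25 with PTPRCA bone marrow and 0.22 with PTPRCA spleen of donor 1. With the donor 1 baseline it was 0.08, and with the disease samples of donor 2 it was -0.0025 to 0.0648. These correlations are descriptions across clones that share libraries and depth. The pattern reached beyond rare clones, since 106 of the 531 mCHERRY clones with at least 100 CPM in donor 1 were seen under 100 CPM in donor 2, against 3 of 552 the other way round. Why the 142 clones had reads almost only in 1 library of the donor 2 baseline was not tested. The main shares for donor 2 that rest on its baseline are therefore given with and without these 142 clones, and otherwise its values include them. Without them, the SD between libraries of the upper band in donor 2 was 1.19. That of its middle band was still 3.19, with 121 of 203 clones more than 4-fold apart.

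A clone detected in the disease samples nearly always came from the matching donor. Of the 904 clones seen only in the donor 2 baseline, 1 to 8 were detected per disease sample of donor 1. Of the 765 seen only in the donor 1 baseline, 1 to 4 were detected per disease sample of donor 2. No such clone reached 100 CPM in any of these 8 samples, and the highest stood at 84.4 CPM in NSG bone marrow of donor 2. This is the background against which detection in the own donor is set. Among the 7401 mCHERRY barcodes listed at 0 in both baselines, 38 to 174 were detected per disease sample of donor 1 and 40 to 120 in the NSG samples of donor 2. The PTPRCA bone marrow and spleen of donor 2 held 830 and 826 of these barcodes, the most of any sample, with none above 70.1 CPM.

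Between 41.5% and 57.3% of the rare clones of a donor were found again in each of its disease samples. In donor 1, 398 of 907 clones (43.9%) were detected in NSG bone marrow, 376 (41.5%) in NSG spleen, 435 (48.0%) in PTPRCA bone marrow and 403 (44.4%) in PTPRCA spleen. In donor 2, 561 of 1046 clones (53.6%) were detected in NSG bone marrow, 599 (57.3%) in NSG spleen, 451 (43.1%) in PTPRCA bone marrow and 437 (41.8%) in PTPRCA spleen. The NSG samples of donor 2 stood above the other 6. Without the clones of both baselines the shares in donor 2 were 61.8%, 65.9%, 49.4% and 48.1% in the same order. In donor 1 they fell to 34.0%, 31.1%, 39.3% and 35.7% without these clones. Over both donors the mean was 48.8% ± 6.90 (SD, n = 2) in NSG bone marrow, 49.4% ± 11.2 in NSG spleen, 45.5% ± 3.42 in PTPRCA bone marrow and 43.1% ± 1.88 in PTPRCA spleen. The differences between groups were smaller than the largest of these SDs, and with 2 donors no exact permutation test that exchanges strains within donors can give a p below 0.5.

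Counted at any read, the strain difference in detection ran in opposite directions in the 2 donors. Detection in NSG minus detection in PTPRCA was -4.08 percentage points in bone marrow and -2.98 in spleen in donor 1, and 10.5 and 15.5 points in donor 2. In the upper baseline band the same differences were -5.91 and -3.48 points in donor 1 and 10.6 and 17.4 points in donor 2. The direction in donor 1 turned with the threshold. At 10 CPM or more its difference was 0.772 points in bone marrow and -0.772 in spleen, and at 100 CPM or more 0.662 and 3.20 points. In donor 2 it stayed above 0 at both thresholds, at 10.6 and 8.32 points and at 6.69 and 7.07 points. These differences include the clones of both baselines. Without them, detection at any read in donor 2 was 61.8% in NSG against 49.4% in PTPRCA bone marrow. In spleen it was 65.9% against 48.1%.

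Detection climbed with the baseline level in each of the 8 disease samples. Clones under 1 CPM were found in 7.78% to 11.1% of cases per sample in donor 1 and in 5.74% to 13.1% in donor 2. For clones of 1 to 10 CPM the range was 23.6% to 25.2% in donor 1 and 15.1% to 34.0% in donor 2. For clones of 10 to 100 CPM it was 54.3% to 63.5% in donor 1 and 58.8% to 76.2% in donor 2. The bands did not overlap within a donor. In PTPRCA bone marrow and spleen of donor 2 the lowest band stood at 5.74% and 13.1%. This was near the 11.2% of barcodes listed at 0 in both baselines that were detected there. Without the clones of both baselines, PTPRCA bone marrow gave 8.54%. PTPRCA spleen then gave 16 of 82 clones (19.5%, 95% Wilson interval 12.4 to 29.4). In bone marrow the band was thus not above that background, and in spleen its interval cleared it only without these clones. Both are counts over clones of 1 sample, not tests. Leaving out the clones of both baselines, the ranges in donor 2 were 8.54% to 19.5%, 19.2% to 46.3% and 60.7% to 78.7%, so the lowest band reached into the middle one. In donor 1 the ranges were then 6.82% to 10.2%, 19.7% to 21.8% and 41.7% to 54.2%. For the lowest band of donor 1, PTPRCA bone marrow and spleen both gave 10 of 90 clones (11.1%, 95% Wilson interval 6.15 to 19.3). NSG bone marrow and spleen both gave 7 of 90 (7.78%, interval 3.82 to 15.2). The same 90 clones were counted in each sample, so these intervals do not test the strains against each other.

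A clone tended to be found in all samples of its donor or in none. In donor 1, 382 of 907 clones were detected in no disease sample, 74 in 1, 104 in 2, 58 in 3 and 289 in all 4. In donor 2 the counts were 387, 79, 139, 73 and 368 of 1046. The shares found in all 4 samples were 4.44%, 14.5% and 43.5% from the lowest to the upper band in donor 1, and 0.820%, 11.2% and 52.4% in donor 2. Without the clones of both baselines, 251 of 904 clones of donor 2 were detected in no sample and 367 in all 4, or 1.22%, 15.3% and 54.1% by band. Within the upper band too, detection went with the level. In donor 2, 70.5% of the clones at 10 to 20 CPM were detected in any disease sample, 85.2% at 20 to 50 CPM and 85.0% at 50 to 100 CPM, and without the clones of both baselines 78.6%, 86.6% and 85.0%. In donor 1 these shares were 63.4%, 74.0% and 77.8%.

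In the middle band, clones read in both baseline libraries were detected more often. In donor 1, clones of 1 to 10 CPM with reads in both libraries were detected in 86 of 212 cases (40.6%), and those with reads in 1 library in 6 of 30 (20.0%). In donor 2, again at 1 to 10 CPM, these counts were 84 of 143 (58.7%) and 25 of 142 (17.6%), or 83 of 142 (58.5%) and 20 of 61 (32.8%) without the clones of both baselines. The clones read in both libraries also had the higher baseline levels. In donor 1 their medians were 3.996 against 1.36 CPM, and in donor 2 they were 5.38 against 2.85 CPM.

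Part of the rare clones grew past the ceiling that had defined them. At 100 CPM or more in at least 1 own disease sample stood 215 of 907 clones in donor 1 (23.7%, 95% Wilson interval 21.1 to 26.6) and 263 of 1046 in donor 2 (25.1%, interval 22.6 to 27.9). Without the clones of both baselines the shares were 12.3% in donor 1 (94 of 765) and 29.1% in donor 2 (263 of 904). In donor 1, 121 of the 215 clones that grew were thus clones of both baselines.

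Outgrowth also went with the baseline band. In the lowest band 0 of 90 clones reached 100 CPM in donor 1, which allows a share of up to 3.33%, and 0 of 122 in donor 2, which allows up to 2.46% (0 of 82 and up to 3.66% without the clones of both baselines). In the middle band 24 of 242 clones did so in donor 1 (9.92%, interval 6.76 to 14.3) and 12 of 285 in donor 2 (4.21%, interval 2.42 to 7.21; 12 of 203, or 5.91%, without the clones of both baselines). In the upper band 191 of 575 did so in donor 1 (33.2%, interval 29.5 to 37.2) and 251 of 639 in donor 2 (39.3%, interval 35.6 to 43.1; 251 of 619, or 40.6%, without them). A clone of the upper band needed a smaller rise to pass the same line, so this gradient is in part fixed by the threshold. Counted instead as a rise of at least 10 times the own baseline in 1 or more disease samples, 5 of 90, 34 of 242 and 125 of 575 clones qualified in donor 1 from the lowest to the upper band, and 5 of 122, 24 of 285 and 126 of 639 in donor 2, or 5 of 82, 23 of 203 and 126 of 619 without the clones of both baselines. Most rare clones went the other way. The mean over the 4 disease samples was below the baseline level for 653 of 907 clones in donor 1 and 726 of 1046 in donor 2 (586 of 904 without the clones of both baselines).

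The highest levels were reached from the upper band. At least 1000 CPM in any disease sample was reached by 83 clones in donor 1, of which 72 came from the upper and 11 from the middle band, and by 47 in donor 2, of which 46 came from the upper band. At least 10000 CPM, which is 1% of a sample's reads, was reached by 3 clones in donor 1 and 1 in donor 2. In the middle band mCHERRY_2_Barcode_913995 of donor 1 went furthest. From 7.58 CPM at baseline it stood at 4767 CPM in PTPRCA bone marrow and 1160 CPM in PTPRCA spleen, but at 1.11 and 6.54 CPM in NSG bone marrow and spleen. In donor 2 the highest of that band was mCHERRY_2_Barcode_303568, with 5.24 CPM at baseline, 366 and 604 CPM in NSG bone marrow and spleen, and 530 and 1373 CPM in PTPRCA bone marrow and spleen. In the lowest band mCHERRY_2_Barcode_856408 of donor 1, with 4 reads at baseline (0.684 CPM), reached 12.9 and 62.5 CPM in NSG bone marrow and spleen and 42.8 and 17.5 CPM in PTPRCA bone marrow and spleen. This clone was found in all 4 disease samples of its donor, although its baseline level rested on few reads. In donor 2 the highest of the lowest band was mCHERRY_2_Barcode_705772, with 3 reads at baseline and 53.3 CPM in NSG bone marrow, 8.17 in NSG spleen, 5.16 in PTPRCA bone marrow and 0 in PTPRCA spleen.

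As a set, the rare clones held a larger share of reads at disease than at baseline. In donor 1 the rare mCHERRY clones held 2.59% of baseline reads. At disease they held 15.0% in NSG bone marrow, 15.2% in NSG spleen, 16.4% in PTPRCA bone marrow and 12.8% in PTPRCA spleen. In donor 2 they held 2.92% of baseline reads, and 9.29%, 10.5%, 7.78% and 9.42% in the same order at disease. All 4 disease samples of donor 1 lay above all 4 of donor 2, and the 2 strains overlapped. The mean share was 12.1% ± 4.03 (SD, n = 2) in NSG bone marrow, 12.9% ± 3.29 in NSG spleen, 12.1% ± 6.08 in PTPRCA bone marrow and 11.1% ± 2.40 in PTPRCA spleen. Nearly all of these reads belonged to the clones that grew past 100 CPM. That split used the disease level itself, so a rise in 1 part and a fall in the other are in part fixed by it. The 215 of donor 1 went from 0.925% of baseline reads to 12.6% to 16.2% at disease, and the 263 of donor 2 from 1.30% to 7.56% to 10.1%. The rare clones that did not pass 100 CPM went from 1.66% to 0.189% to 0.258% in donor 1 and from 1.62% to 0.222% to 0.500% in donor 2. Of the share in donor 1, 8.69 to 12.9 percentage points came from the 142 clones of both baselines. Without them the clones of donor 1 held 1.96% of baseline reads and 2.53% to 4.12% of disease reads. The baseline share of donor 2 without them was 2.85%, and the disease shares differed by less than 0.01 points. A gain was not particular to rare clones. The mCHERRY clones at 100 CPM or more in the own baseline went from 21.7% to between 27.0% and 35.8% in donor 1. In donor 2 they went from 26.3% to between 38.1% and 49.8%. Rare clones of the BFP library went from 7.03% to between 3.93% and 14.4% in donor 1, and from 5.59% to between 2.40% and 4.36% in donor 2.

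The clones seen in both baselines also grew more often than others of like baseline level in donor 1. Of the clones at 10 to 100 CPM, 111 of 127 that were also read in the donor 2 baseline reached 100 CPM in donor 1 (87.4%), against 80 of 448 that were not (17.9%). At 1 to 10 CPM the counts were 10 of 13 (76.9%) and 14 of 229 (6.11%). Being read in the donor 2 baseline thus went with growth in donor 1, and as above the reason was not tested.

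Growth narrowed the set of clones that carried most reads. At baseline, 167 clones in donor 1 and 183 in donor 2 made up 50% of the reads of the rare mCHERRY clones. At disease that number was 21 and 17 in NSG bone marrow and spleen and 12 and 13 in PTPRCA bone marrow and spleen of donor 1. In donor 2 the NSG samples gave 40 and 33, and the PTPRCA samples 11 and 10. The PTPRCA samples were the more concentrated in both donors. The 8 largest clones of a sample held 42.2% and 39.5% of these reads in PTPRCA bone marrow and spleen of donor 1, against 29.7% and 36.1% in NSG. In donor 2 they held 45.5% and 45.5% in PTPRCA against 17.8% and 24.3% in NSG.

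Among the 8 clones of donor 1 with the highest mean over its disease samples, all rose above baseline in every sample, some evenly and others mainly in 1 strain. The largest was mCHERRY_2_Barcode_596565, at 46.2 CPM at baseline, 399 and 1132 CPM in NSG bone marrow and spleen, and 24291.5 and 10714 CPM in PTPRCA bone marrow and spleen. Its mean at disease was 197.5 times the baseline, and both PTPRCA samples lay above both NSG samples. The next, mCHERRY_2_Barcode_711549, went from 91.6 CPM to 7702 and 8884 CPM in NSG and 4606 and 3165 CPM in PTPRCA. This clone was high everywhere. In contrast, mCHERRY_2_Barcode_88612 had 378 and 635 CPM in NSG and 12515 and 4488 CPM in PTPRCA from 67.4 CPM at baseline. The spleen was the higher tissue for mCHERRY_2_Barcode_103775, from 80.7 CPM to 1978 CPM in NSG bone marrow, 8757 in NSG spleen, 950 in PTPRCA bone marrow and 6030 in PTPRCA spleen. For mCHERRY_2_Barcode_187643 the tissues ran opposite ways in the 2 strains, with 5039 and 727 CPM in NSG bone marrow and spleen and 2018 and 8814 CPM in PTPRCA, from 33.1 CPM. The most even of the 8 was mCHERRY_2_Barcode_652870, at 2906 to 5209 CPM over the 4 samples from 54.9 CPM. The last 2 were higher in NSG. From 39.5 CPM, mCHERRY_2_Barcode_554276 stood at 10886 and 1205 CPM in NSG and 2270 and 477 CPM in PTPRCA. From 24.8 CPM, mCHERRY_2_Barcode_216835 stood at 4068 and 9061 CPM in NSG and 139 and 319 CPM in PTPRCA. All of the 8 except mCHERRY_2_Barcode_103775 were also read in the donor 2 baseline, at 4.23 to 32.5 CPM.

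The leading clones of donor 2 were read in its own baseline alone. From 83.7 CPM, mCHERRY_2_Barcode_109594 stood at 1426 and 3622 CPM in NSG bone marrow and spleen and 11916 and 9607 CPM in PTPRCA bone marrow and spleen. The next, mCHERRY_2_Barcode_1090695, went from 82.6 CPM to 1558 and 2878 CPM in NSG and 2506 and 9799 CPM in PTPRCA. Both of these were present at over 1000 CPM in all 4 samples, with the higher spleen level in PTPRCA. Clones near even between strains were mCHERRY_2_Barcode_182414, at 769 to 3030 CPM over the 4 samples, and mCHERRY_2_Barcode_172148, at 626 to 2947 CPM. From 91.5 CPM, mCHERRY_2_Barcode_805929 stood at 691 and 3353 CPM in NSG and 3989 and 3812 CPM in PTPRCA. Higher in both PTPRCA samples were mCHERRY_2_Barcode_428625, with 224 and 349 CPM in NSG and 1349 and 7421 CPM in PTPRCA, and mCHERRY_2_Barcode_664712, with 81.3 and 78.7 CPM in NSG and 6787 and 1251 CPM in PTPRCA. In the opposite direction, mCHERRY_2_Barcode_348373 went from 52.7 CPM to 2155 and 4849 CPM in NSG and was listed at 0 in both PTPRCA samples.

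Clones that grew in 1 strain often grew in the other. In donor 1, of the 215 clones that reached 100 CPM, 115 did so in both strains, 59 in NSG alone and 41 in PTPRCA alone, and 80 did so in all 4 samples. In donor 2, of 263 clones, 102 did so in both strains, 127 in NSG alone and 34 in PTPRCA alone, and 58 in all 4 samples. Over clones of all colours that reached 100 CPM at disease, 43.5% of 857 did so in NSG alone and 19.1% in PTPRCA alone in donor 1, and 41.6% of 848 and 17.6% in donor 2. The rare mCHERRY clones gave 27.4% and 19.1% in donor 1 and 48.3% and 12.9% in donor 2. Many clones passed in both tissues of a strain. Of the clones at 100 CPM in either tissue, 70.7% in NSG and 67.9% in PTPRCA reached it in both tissues in donor 1, and 56.8% and 58.1% in donor 2. At 1000 CPM it was fewer, at 35.9% and 41.3% in donor 1 and 31.2% and 45.8% in donor 2.

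Levels went together more closely between tissues than between strains. On the log2(CPM + 10) scale, the Pearson correlation of bone marrow with spleen of the same strain was 0.86 to 0.92 over the clones of a donor, and that between strains was 0.66 to 0.76. With the baseline of the same donor it was 0.29 to 0.37 in donor 1 and 0.47 to 0.50 in donor 2. These are descriptions across clones of single samples, and clones are not replicates.

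Strain was tested clone by clone with limma on log2(CPM + 10) over all 10 samples, fitted on the 3443 clones of all colours that reached 100 CPM anywhere and adjusted over all of them with the Benjamini-Hochberg method. Since the rare clones lie below 100 CPM at baseline, those tested were the 478 that had grown. Between NSG and PTPRCA, limma called 0 of 3443 clones at an adjusted p under 0.05 (0% called), 0 of the 478 rare mCHERRY clones among them, and 1 of 3443 had an unadjusted p under 0.05. A clone present in 1 donor only is compared there with zeros in the other donor, which widens its spread in this fit. A fit that takes out the mean of each donor as a block called 10 clones (0.290%, with 0.145% in each direction), of which 2 were rare mCHERRY clones. They were mCHERRY_2_Barcode_348373 of donor 2, higher in NSG by a log2 difference of 4.17 ± 0.98 (SE; limma adjusted p = 0.0126), and mCHERRY_2_Barcode_364642 of donor 1, with a log2 difference of -3.82 ± 1.01 (limma adjusted p = 0.0498). The second stood at 0 in both NSG samples and at 3067 and 1299 CPM in PTPRCA bone marrow and spleen, from 8.99 CPM at baseline. Each was absent from the other donor, so neither difference had a second donor behind it, and with marrow and spleen averaged to 1 value per strain and donor neither was called (limma adjusted p = 0.893). With donor as a block, leaving out any disease sample of donor 2 ended the call of mCHERRY_2_Barcode_348373, and leaving out any of donor 1 ended that of mCHERRY_2_Barcode_364642.

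Within a single donor, marrow and spleen stand as the 2 samples of a strain, so that a p measures only the spread between tissues, which may come from the same recipient. It does not show a difference between strains beyond that donor. In donor 1, limma called 255 of the 857 clones tested (29.8%), 19.7% higher and 10.0% lower in NSG. Of the 215 rare mCHERRY clones tested, 54 were called (25.1%), 31 higher (14.4%) and 23 lower (10.7%) in NSG. In donor 2, limma called 256 of 848 (30.2%), 20.4% higher and 9.79% lower in NSG. Of the 263 rare mCHERRY clones tested, 81 were called (30.8%), 67 higher (25.5%) and 14 lower (5.32%) in NSG. In both directions together the shares were near those of all clones, while by direction they lay below or above them. Of the rare clones called, 48 of 54 in donor 1 and 73 of 81 in donor 2 had reached 100 CPM only in the strain where they were higher. They entered the test through that strain, so their calls carry no weight as a result about rare clones. The median log2 difference of the clones tested, NSG minus PTPRCA, was 0.43 for the rare mCHERRY clones against 1.43 for all clones in donor 1, and 1.54 against 1.12 in donor 2. The calls in donor 1 rested on the PTPRCA samples, with 0 rare mCHERRY clones called when either was left out and 18 when either NSG sample was. In donor 2, 4 were called without either PTPRCA sample, 41 without NSG bone marrow and 42 without NSG spleen. Testing all clones with reads at disease in place of those that reached 100 CPM gave 0 calls in both donors, with 122 and 172 rare mCHERRY clones at an unadjusted p under 0.05, and a pseudocount of 100 CPM gave 0 in donor 1 and 26 in donor 2.

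The clones with the smallest adjusted p in each direction are given as examples chosen for their difference. Most of them reached 100 CPM only in the strain where they were higher, so their adjusted p carries no weight of its own. It also measures only the spread between the tissues of 1 donor. In donor 1, higher in NSG was mCHERRY_2_Barcode_92012, with 499 and 908 CPM in NSG bone marrow and spleen against 2.54 and 7.15 CPM in PTPRCA (log2 difference 5.54 ± 0.75, limma adjusted p = 0.0103). So were mCHERRY_2_Barcode_347132 (504 and 1300 CPM against 2.58 and 10.7 CPM), mCHERRY_2_Barcode_69040 (2570 and 808 CPM against 18.7 and 9.88 CPM), mCHERRY_2_Barcode_600862 (805 and 3101 CPM against 25.4 and 16.3 CPM) and mCHERRY_2_Barcode_730794 (390 and 356 CPM against 13.3 and 2.39 CPM). All 5 were read in the donor 2 baseline. Lower in NSG were mCHERRY_2_Barcode_364642 (log2 difference -7.65 ± 0.80, limma adjusted p = 0.0103) and mCHERRY_2_Barcode_913995 (-7.45 ± 0.95), both described above. A further clone, mCHERRY_2_Barcode_331559, had 5.99 and 25.8 CPM in NSG and 1014 and 3895 CPM in PTPRCA from 1.71 CPM at baseline, 10 reads in all. The last 2 were mCHERRY_2_Barcode_15313 (12.2 and 1.08 CPM in NSG against 522 and 347 CPM in PTPRCA) and mCHERRY_2_Barcode_93319 (11.9 and 8.17 CPM against 283 and 631 CPM). None of these 10 clones was called with a pseudocount of 100 CPM or without a filter. There the smallest limma adjusted p of any rare mCHERRY clone of donor 1 was 0.0553 and 0.100.

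Those of donor 2 were chosen in the same way, and the same limits hold for their adjusted p. Higher in NSG, beside mCHERRY_2_Barcode_348373 (log2 difference 8.34 ± 0.94), was mCHERRY_2_Barcode_862555, with 2632 and 1309 CPM in NSG bone marrow and spleen against 0 and 0.697 CPM in PTPRCA (log2 difference 7.50 ± 0.92, limma adjusted p = 3.22e-06). So were mCHERRY_2_Barcode_166599 (501 and 698 CPM against 0.986 and 0.348 CPM), mCHERRY_2_Barcode_804093 (1110 and 443 CPM against 2.46 and 5.11 CPM) and mCHERRY_2_Barcode_16657 (366 and 863 CPM, listed at 0 in both PTPRCA samples). Lower in NSG were mCHERRY_2_Barcode_664712 (log2 difference -5.02 ± 0.99, limma adjusted p = 6.88e-04) and mCHERRY_2_Barcode_693037, with 168 and 146 CPM in NSG against 3464 and 2669 CPM in PTPRCA. The remaining 3 were mCHERRY_2_Barcode_206161 (25.6 and 11.1 CPM against 370 and 742 CPM), mCHERRY_2_Barcode_13715 (8.95 and 19.2 CPM against 426 and 379 CPM) and mCHERRY_2_Barcode_522648 (31.3 and 16.0 CPM against 247 and 973 CPM). The adjusted p of the clones higher in NSG ranged up to 0.133 over the alternatives, and that of the clones lower in NSG up to 0.309.

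By size alone, without a test, clones over 4-fold higher in NSG in both tissues on the log2(CPM + 10) scale were 41 of the 215 rare mCHERRY clones tested in donor 1 (19.1%, against 25.1% of all clones) and 61 of 263 in donor 2 (23.2%, against 20.2%). Over 4-fold higher in PTPRCA in both tissues were 25 in donor 1 (11.6%, against 11.4%) and 12 in donor 2 (4.56%, against 10.1%). A few clones were at 100 CPM or more in both tissues of 1 strain and had no reads in the other strain. There were 3 such clones for NSG and 2 for PTPRCA in donor 1, and 4 and 0 in donor 2 (1.40% and 0.930% of the clones tested in donor 1, 1.52% and 0% in donor 2). Over all clones the shares were 2.92% and 0.583% in donor 1 and 1.42% and 0.118% in donor 2. Set against 3 reads in the other strain, mCHERRY_2_Barcode_348373 of donor 2 was at least 6688-fold higher in NSG and mCHERRY_2_Barcode_364642 of donor 1 at least 4701-fold higher in PTPRCA. For mCHERRY_2_Barcode_4225 of donor 1, from 4.10 CPM at baseline to 181 and 2525 CPM in NSG bone marrow and spleen, the bound was at least 3037-fold. For mCHERRY_2_Barcode_321885 of donor 1, at 1790 and 244 CPM in PTPRCA bone marrow and spleen from 7.57 CPM, it was at least 2190-fold.

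Between tissues no rare mCHERRY clone passed the test, which does not show that the tissues were alike. Over both donors limma called 0 of 3443 clones between spleen and bone marrow (0% called), with 0 at an unadjusted p under 0.05, also with donor as a block. Within donors limma called 0 of 857 and 0 of 848, with 1 clone in each at an unadjusted p under 0.05. There the strains stood as the 2 samples of a tissue, so differences between strains widened the spread. Over both donors, the zeros of a donor without the clone widened it. These fits could therefore miss differences between tissues. A model within donors with both strain and tissue called 0 of 857 and 2 of 848 clones, with 46 and 49 at an unadjusted p under 0.05, and the fit of donor 2 without NSG spleen called 1 of 751. None of the clones called was a rare mCHERRY clone. Over 4-fold higher in spleen in both strains were 1 of the 215 rare mCHERRY clones tested in donor 1 (0.465%, against 0.583% of all clones) and 2 of 263 in donor 2 (0.760%, against 0.472%). Over 4-fold higher in bone marrow were 4 (1.86%, against 1.28%) and 3 (1.14%, against 0.590%). The 1 clone of donor 1 that was over 4-fold higher in both spleens was mCHERRY_2_Barcode_103775, given above (log2 difference, spleen minus bone marrow, 2.40 ± 1.33; limma adjusted p = 0.999). The clones of donor 1 that follow had a larger mean difference without passing 4-fold in both strains. On the side of bone marrow, mCHERRY_2_Barcode_115191 had 3095 and 8254 CPM in NSG and PTPRCA bone marrow and 981 and 335 CPM in the spleens (log2 difference -3.12 ± 1.42; limma adjusted p = 0.999). On the side of spleen, mCHERRY_2_Barcode_284293 had 390 and 235 CPM in NSG and PTPRCA bone marrow and 8556 and 434 CPM in the spleens. In donor 2, mCHERRY_2_Barcode_91656 had 10.8 and 44.5 CPM in the bone marrows and 102 and 735 CPM in the spleens, and mCHERRY_2_Barcode_1107840 had 192 and 1250 CPM in the bone marrows and 17.5 and 182 CPM in the spleens. None of these clones passed the test, and they were chosen for their difference.

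Rare clones of the BFP library, chosen by the same rule, give a yardstick. In donor 1, 1449 of 3126 rare BFP clones (46.4%) were detected in any disease sample and 355 (11.4%) reached 100 CPM, against 57.9% and 23.7% of the rare mCHERRY clones. In donor 2, 1104 of 2212 (49.9%) were detected and 201 (9.09%) reached 100 CPM, against 63.0% and 25.1%. The gap was widest in the upper band. There 17.0% and 12.9% of BFP clones reached 100 CPM in donors 1 and 2, against 33.2% and 39.3% of mCHERRY clones, while in the middle band the shares were 4.68% and 4.14% against 9.92% and 4.21%. In the lowest band the order was the other way, with 3 of 249 and 3 of 222 BFP clones against 0 of 90 and 0 of 122 mCHERRY clones. BFP clones were seen in both baselines as well. With such clones left out of both colours, the upper band gave 10.96% of 1597 BFP clones against 17.9% of 448 mCHERRY clones in donor 1, and 12.9% of 1292 against 40.6% of 619 in donor 2. The gap in donor 1 was thus smaller without them, and that in donor 2 was not. In donor 1 this step took out clones most of which had grown there, 111 of 127 mCHERRY clones in the upper band. In the same band and donor, the BFP clones that reached 100 CPM went from 300 of 1767 to 175 of 1597. How far the smaller gap follows from the step itself was not tested, so the step does not give a cleaner comparison of colours. Clones that were abundant at baseline, at 100 CPM or more, stayed detectable more often. Among mCHERRY clones of that kind 87.4% in donor 1 and 92.9% in donor 2 were detected in any disease sample, and 36.2% and 55.6% stood at 100 CPM or more in at least 1 of them. These are shares over clones of 2 donors, given without a test.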

How the data were processed

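Barcodes were amplified from genomic DNA of sorted viable cells in 2 rounds of PCR, with each lysate split into technical replicates, per the labels' protocols. Bowtie 1.2.2 and R 3.6 are listed in the submitters' processing notes. The barcode reference, filters and merging of replicates are not stated in the sources used here. Values deposited by the authors are CPM in 1 table of 10 columns, each matched to a sample by donor, strain and tissue, with 0 columns of other samples. Low CPM values showed that every column is the mean of 2 to 4 libraries (23 in all, 1591539 to 4475416 reads each). Library totals came out whole within 0.00972 reads, and all baseline values of the rare mCHERRY clones could be split by library. Because no column has 1 step per read, no count model was run.

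A clone was detected at any value above 0 and outgrown at 100 CPM or more in 1 or more disease samples of its own donor. Clones were tested with limma 3.58.1 in R 4.3.3 (lmFit, eBayes with a trend, two-sided) on log2(CPM + 10), 1 mean per group, over clones with at least 100 CPM in a sample of the fit. Folds of low clones are understated on this scale. Other values came from Python 3.11.15, numpy 2.4.6, pandas 2.3.3 and scipy 1.17.1. The library split and the limma fits were tested on simulated data. A shared number means a shared donor mouse, per the labels, and samples of 1 donor deviated together from the group means (r 0.466 to 0.944 over 10 pairs of groups).

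Clones are named where they were among the 8 highest on average at disease in a donor, the 2 highest of a band, the 4 most different between strains or the 3 between tissues per direction, the 5 with the smallest adjusted p per direction, clones of both baselines that reached 100 CPM in both donors (there were 0), or the 3 nearest the ceiling on either side. Clones called with a donor block, or with no reads in 1 strain, were picked with their values in view. The clones, lists and tests were chosen with earlier results of these data known. Alternatives were a ceiling of 50 CPM, removal of the clones of both baselines, other thresholds for detection and growth, and other pseudocounts and filters. Further ones were rescaling without the largest clone, a donor block, a tissue term, and samples or donors left out. Chosen after seeing the data were the removal of the clones of both baselines in donor 2 only, the single samples left out of the fit over both donors, and the block with marrow and spleen averaged or with single samples left out.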

Additional observations from a re-analysis of the deposited data

Results flagged for a closer look

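The difference between strains in the share of rare mCHERRY clones detected ran one way in donor 1 and the other way in donor 2, in both tissues. NSG minus PTPRCA was -4.08 percentage points in bone marrow and -2.98 in spleen in donor 1, and 10.5 and 15.5 in donor 2. For clones of 10 to 100 CPM at baseline it was -5.91 and -3.48 in donor 1, and 10.6 and 17.4 in donor 2. The opposite directions held for detection at any read. At 10 CPM or more the differences in donor 1 were 0.772 and -0.772 points, and at 100 CPM or more 0.662 and 3.20 points, so at 100 CPM both tissues of donor 1 had the direction of donor 2. The difference between the donors was not tested, since each donor gave 1 sample per strain and tissue.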

How the results depend on the processing

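The mean share of rare mCHERRY clones detected per disease sample was 46.7% over both donors. It was 41.9% with a ceiling of 50 CPM and 51.2% for clones of at least 1 CPM in the own baseline. Detection set at 1 and at 10 CPM gave 39.7% and 28.6%. Without the clones of both baselines the mean was 45.7%, with 35.0% in donor 1 and 56.3% in donor 2. With these clones left out in donor 2 only, it was 50.4%. The 478 clones that grew past 100 CPM became 276 with a ceiling of 50 CPM and 357 without the clones of both baselines. They became 130 at 1000 CPM and 300 when both tissues of a strain had to pass. With values rescaled after removal of the largest clone of the series, the count was 396. Of these, 23 in place of 36 came from the middle band, and the read share of donor 2 was 6.74% in place of 9.26%. With either donor left out the count was 215 to 263 and the share detected 44.4% to 48.9%. The mean share of disease reads, 12.1%, became 5.84% with a ceiling of 50 CPM and 24.8% of mCHERRY reads alone, and was 9.26% to 14.8% with either donor left out. The mean share of grown clones present in both tissues, 63.4%, was 38.6% at 1000 CPM. With donor as a replicate block, limma called 2 rare mCHERRY clones between strains in place of 0. With each disease sample left out in turn, the fit without the block called 0 each time and the fit with it 2 to 5. A whole donor could not be left out of either fit. Within donor 1 the 54 calls became 0 with a pseudocount of 100 CPM, 26 with a filter of 1000 CPM, 0 without a filter, and 0 to 18 with 1 sample left out. Within donor 2 the 81 calls became 26, 14, 0 and 4 to 42. The sign of the strain difference in detection in donor 1 turned in bone marrow at a threshold of 10 CPM and in both tissues at 100 CPM. The causes were not tested, other than that fewer clones or samples enter under the stricter settings. Clones at 1 to 3 reads at baseline cannot be placed in a band firmly, nor can clones below 10 CPM that differed several-fold between baseline libraries. The 2 donors limit every strain comparison.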
